A study of Mus musculus with 2 samples.

Results

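The genes described here are adipolin, *C1qtnf12*, and its relatives among the C1q/TNF-related genes, in whole pancreata of E15.5 mouse embryos. The members are *C1qtnf12*, *C1qtnf1* to *C1qtnf7*, *C1qtnf9* and *Adipoq*, and 9 of these 10 had a value, out of 19938 genes measured on the arrays. *C1qtnf12*, formerly *Fam132a*, had been chosen by the study from its difference between the same arrays, and the other members were gathered around it. Its values are therefore given as a description and support no statement about the family. The paper also measured *Fam132a* by qRT-PCR in individual E15.5 samples and reports a significant reduction in *Mafk*-Tg. Those measurements are separate from the array values given here. *C1qtnf5* had no value, because its 1 probe set also carries the symbol of *Mfrp*, the gene it overlaps.

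WT embryos were compared with *Mafk*-Tg embryos, both of E15.5 and kept on the ICR background. The transgene is a FLAG-tagged mouse *Mafk* cDNA behind the rat *insulin I* promoter, a promoter of β-cells, while RNA came from the whole pancreas. RNA was hybridised to Affymetrix mouse gene arrays, of which 1 per genotype was analysed. The series gives 3 pancreata per genotype, and whether they were pooled on an array is not given in the sources used here. Values are normalized log2 signals. A difference is the *Mafk*-Tg value minus the WT value on this scale, and differences of at least 1.2-fold, or 0.26 on the log2 scale, are called higher or lower. With 1 array per genotype there was no spread between replicates and no test. In RNA of a whole organ, fewer cells of a type and less RNA per cell cannot be told apart.

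Proteins of this family are secreted. Each ends in a globular C1q domain, which folds like tumour necrosis factor, and most carry a collagen-like stalk through which 3 chains wind into a trimer. Adiponectin, encoded by *Adipoq*, is the best known relative, a fat cell hormone that raises insulin sensitivity through the receptors ADIPOR1 and ADIPOR2. Adipolin is likewise known as a secreted factor that improves insulin sensitivity and glucose handling, and the protease furin can cleave it.

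The arrays also differed in ways that touch every value below. *Xist* stood at 4.40 in WT and 11.30 in *Mafk*-Tg, and 3 genes of the Y chromosome, *Kdm5d*, *Uty* and *Eif2s3y*, had differences of -5.68 to -3.93. Genotype and the sex of the embryos therefore cannot be told apart, for autosomal genes as well as for sex-linked ones. None of the 9 measured members is X- or Y-linked, but this does not take them out of that limit. *Mafk* itself had 6.75 in WT and 6.997 in *Mafk*-Tg, under 1.2-fold. The medians of all probe sets were 6.01 and 6.01, and 9 reference genes had a median difference of 0.02.

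Adipolin was lower in the *Mafk*-Tg pancreas. *C1qtnf12* measured 8.38 in WT and 7.64 in *Mafk*-Tg on the log2 scale, with a difference of -0.74, or 1.67-fold. Both values lay above the medians of their arrays, where the difference varied less from gene to gene. The robust SD of the difference over genes was 0.15 at or above the median mean level and 0.24 below it. This is a spread between genes, not between replicates, and gives no error for the *C1qtnf12* difference. Of the 11108 genes at or above the median on both arrays, 20 had a difference further below 0 than *C1qtnf12*. This filter uses the *Mafk*-Tg value as well, so genes that fell below the median on that array were left out. Over all 19938 genes, 92 had a difference further below 0. The *C1qtnf12* values were the basis of its selection.

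*C1qtnf1* was the other member that was lower. It encodes CTRP1, a secreted relative found in fat and blood vessels, and it had 6.47 in WT and 6.15 in *Mafk*-Tg, with a difference of -0.33. Both values lay above the medians, by less than 0.5. *C1qtnf7*, at 6.12 in WT and 5.91 in *Mafk*-Tg, came next with -0.21 and lay within the cutoff, 1 value on each side of the median. *C1qtnf3* encodes CTRP3, also called cartducin, a factor of growing cartilage and fat. It was the 1 higher member, at 4.82 in WT and 5.12 in *Mafk*-Tg, with a difference of 0.29, and both its values lay below the medians.

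The remaining 5 members differed by 0.10 or less in either direction. *C1qtnf9* encodes CTRP9, a close relative of adiponectin, and had 5.65 in WT and 5.55 in *Mafk*-Tg. *C1qtnf2* had 5.37 in WT and 5.29 in *Mafk*-Tg. *C1qtnf4* encodes CTRP4, which has a pair of C1q domains and no collagen stalk, and its values were 5.96 in WT and 6.02 in *Mafk*-Tg. *C1qtnf6*, whose product can inhibit the alternative complement pathway, had 6.36 on both arrays, and the 2 deposited values were identical. *Adipoq* had the lowest array values of the members, 3.59 in WT and 3.69 in *Mafk*-Tg, both far below the medians. Its difference was 0.10.

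**Figure D1:**
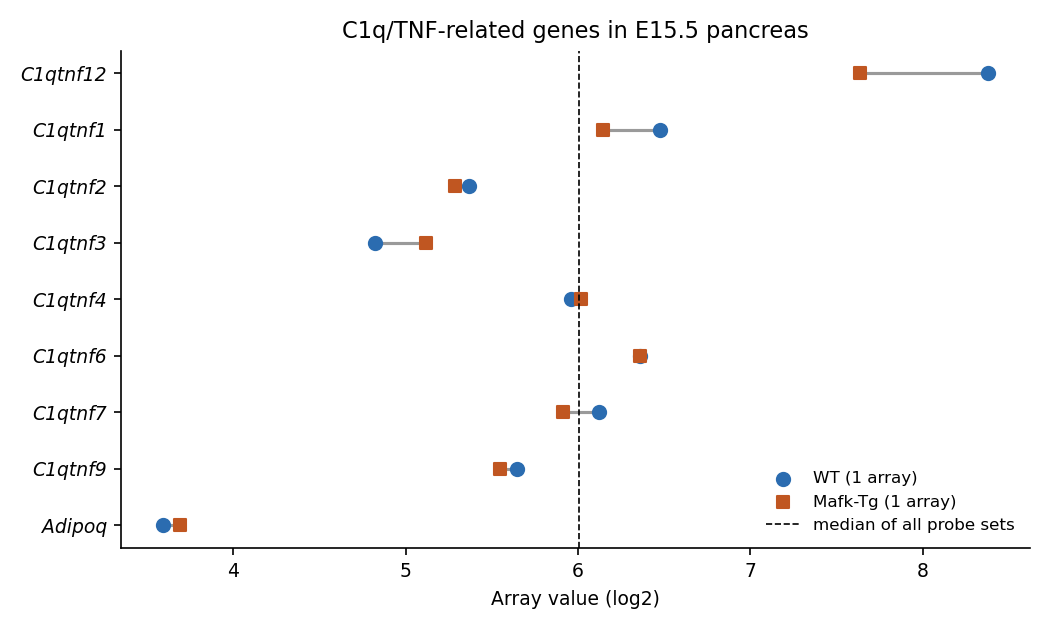
Log2 array values of the 9 measured C1q/TNF-related genes (rows) with circles for WT, squares for *Mafk*-Tg, a connecting line for each gene and a dashed line at the median of all probe sets. *C1qtnf12* goes from 8.38 to 7.64 and lies to the right of the dashed line on both arrays, while 4 members lie to its left on both. Array values of different genes also depend on their probes and are not an order of RNA amounts.

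Over the 9 members, 2 were lower, 1 was higher and 6 were within the cutoff. Among all genes, 10.5% were lower and 7.96% higher. Signs were mixed, with 5 differences below 0 and 3 above. The median difference of the members was -0.08, beside -0.01 over all genes, and it was -0.04 without *C1qtnf12*. At 1.5-fold, *C1qtnf12* alone was lower and no member was higher, beside 1.27% and 0.697% of all genes. The level of a gene bears on how often it passes 1.2-fold. Of genes whose mean level lay under the median probe set, 16.6% were lower and 11.1% higher, and of those at or above it 5.87% were lower and 5.58% higher. *C1qtnf3*, the higher member, belongs to the first class, and *C1qtnf12* and *C1qtnf1* to the second. As the choice of *C1qtnf12* used this contrast, nothing is read from these counts.

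**Figure D2:**
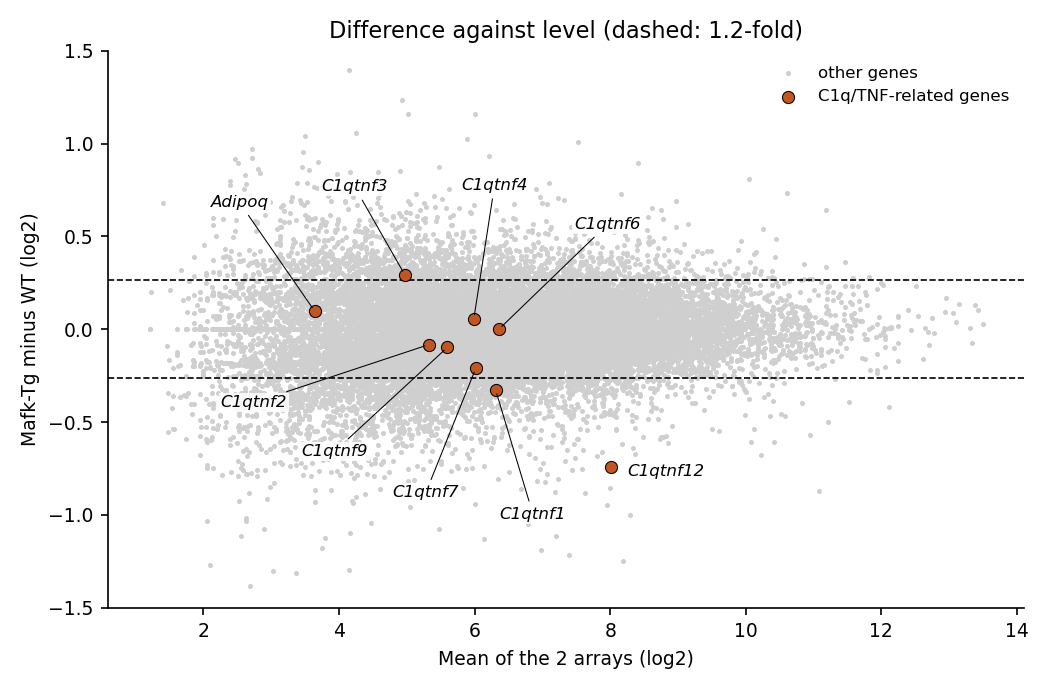
Log2 difference, *Mafk*-Tg minus WT, against the mean of both arrays for all genes (grey) and the 9 measured C1q/TNF-related genes (filled), from single arrays, where dashed lines mark 1.2-fold. *C1qtnf12* at -0.74 lies below the bulk of genes of its level, and the other members lie between -0.33 and 0.29; 9 genes lie outside the plotted range.

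Genes beside adipolin on chromosome 4 were then examined. In the RefSeq gene order, the 5 nearest measured genes on each side were *Cptp*, *Ints11*, *Pusl1*, *Acap3* and *Ube2j2*, and *B3galt6*, *Sdf4*, *Tnfrsf4*, *Gm16008* and *Tnfrsf18*. None of these 10 was lower by 1.2-fold and 1 was higher, beside 10.5% lower and 7.96% higher among all genes. Such counts among 10 genes are close to these shares, and nothing is read from them. The median difference of the neighbours was 0.08, beside -0.01 over all genes. *Ube2j2*, the ubiquitin-conjugating enzyme gene next to adipolin, had 6.87 in WT and 6.76 in *Mafk*-Tg, with a difference of -0.11. On the other side *B3galt6*, a galactosyltransferase gene of proteoglycan synthesis, had 5.999 and 5.92, a difference of -0.08. The noncoding gene *Gm16008* was the 1 higher neighbour, with 5.67 in WT and 6.01 in *Mafk*-Tg.

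**Figure D3:**
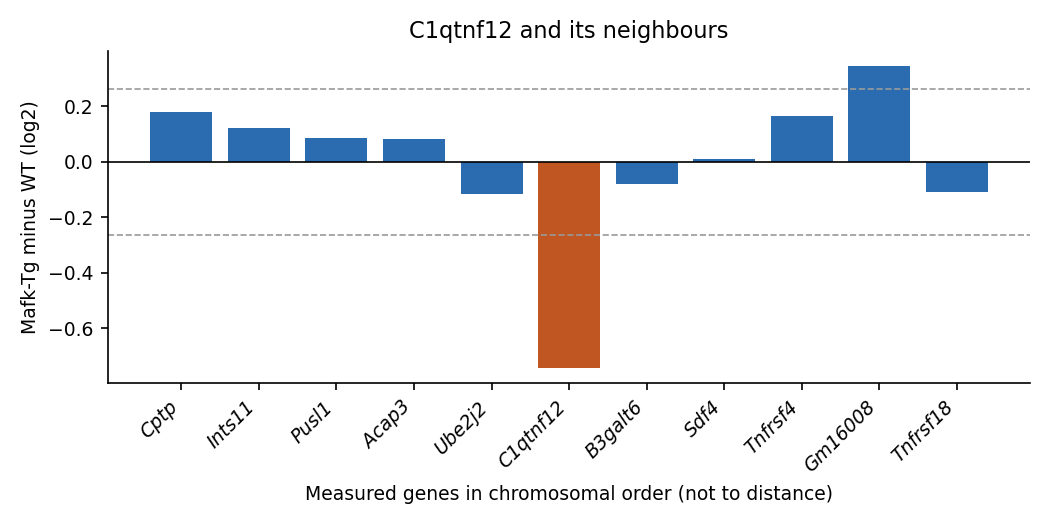
Log2 difference, *Mafk*-Tg minus WT, of *C1qtnf12* and the 5 nearest measured genes on each side in chromosomal order, from single arrays, where dashed lines mark 1.2-fold; spacing does not show distance. *C1qtnf12* stands at -0.74, and its neighbours lie between -0.11 and 0.35.

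Promoters were searched for the elements that MAF proteins bind, since *Mafk* is the transgene. The RefSeq promoter table of GRCm38.p6 held 7 of the 10 members, and *C1qtnf12*, *C1qtnf1* and *C1qtnf4* were not among them. In the 250 bases before the transcript start, on both strands, the half-site TGCTGA of the MAF recognition element lay in 3 of the 7 windows, those of *C1qtnf5*, *C1qtnf7* and *Adipoq*, and in 16.1% of 32851 promoters. The core TGANTCA, which MAF elements share with AP-1 sites, lay in *C1qtnf6* alone and in 6.75% of promoters. The complete palindromes with 1 or 2 bases at the centre, TGCTGANTCAGCA and TGCTGANNTCAGCA, lay in none of the 7 and in 0.00609% of promoters each; they contain the half-site, and the first also contains the core. A match is no evidence of binding. The measured members with a match are shown with the matching letters in capitals, 5′ to 3′ on the strand of the gene, without bases inside the annotated gene except for 30 bases around the match of *C1qtnf6*.
C1qtnf7, chr5:43515319-43515424, plus strand: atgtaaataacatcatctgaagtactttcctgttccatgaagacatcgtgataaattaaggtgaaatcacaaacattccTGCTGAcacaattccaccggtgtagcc
Adipoq, chr16:23146286-23146535, plus strand: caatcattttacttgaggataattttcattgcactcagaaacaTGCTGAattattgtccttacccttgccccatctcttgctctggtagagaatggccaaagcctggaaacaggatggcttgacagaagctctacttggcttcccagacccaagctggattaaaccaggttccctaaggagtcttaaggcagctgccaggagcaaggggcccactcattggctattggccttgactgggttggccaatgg
C1qtnf6, chr15:78529802-78529831, minus strand: cccagggcattTGACTCAaacaggtcccca
The differences of these genes were -0.21, 0.10 and 0.00. Among the searched and measured members without either match, *C1qtnf2*, *C1qtnf9* and *C1qtnf3* had -0.08, -0.10 and 0.29.

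Other genes with a C1q domain were measured in full, 22 of 22. Of these 6 were lower, 1 was higher and 15 were within the cutoff, with a median difference of -0.07. The shares over all genes, 10.5% lower and 7.96% higher, stand beside this count and the list counts that follow. *C1qc* and *Erfe* lay so near the cutoff that they fell within it under loess, which left 4 lower, while under quantile normalization *Emilin2* passed it, which made 7. *C1qb*, a chain of complement C1q that macrophages make, was lower at 8.21 in WT and 7.77 in *Mafk*-Tg. *C1qc*, another chain of the same molecule, was lower by just over the cutoff, with 7.35 and 7.09. *C1qa*, the remaining chain, had 7.57 and 7.66, so the differences of the chains of 1 complex were not of the same sign. *Mmrn1*, which encodes the platelet and endothelial protein multimerin, had 6.65 in WT and 6.24 in *Mafk*-Tg. *Emilin1* and *Emilin3*, genes of extracellular matrix glycoproteins, had differences of -0.34 and -0.29. *Erfe*, the gene of the erythroblast hormone erythroferrone, which is also a relative of adipolin, had 5.95 in WT and 5.68 in *Mafk*-Tg, with a difference of -0.27 below the medians of both arrays. *C1ql3*, the gene of a synaptic C1q-like protein, was the 1 higher gene, at 4.62 and 4.94, likewise below both medians. The cerebellin genes *Cbln1* to *Cbln4* and the collagen genes *Col8a1*, *Col8a2* and *Col10a1* were within the cutoff.

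Receptors of the adiponectin type were measured at nearly the same level in both genotypes. *Adipor1* had 9.47 in WT and 9.47 in *Mafk*-Tg, and *Adipor2* had 8.75 and 8.73. *Appl1*, which encodes the adaptor that binds both receptors, had 7.94 and 7.90. *Cdh13*, the gene of T-cadherin, which binds adiponectin at the cell surface, had 5.69 and 5.43, a difference of -0.26 that falls short of the cutoff by a small margin. *Adgrb3*, a receptor gene for C1q-like proteins, had 0.06. *Rxfp1*, the relaxin receptor gene, had 3.60 on both arrays. None of the 6 measured genes passed 1.2-fold in either direction, and *Appl2* and *Mfrp* had no value.

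Downstream of these receptors lies AMPK, the kinase that responds to low energy. Of 8 genes of its subunits and of the upstream kinase LKB1, *Prkab1* alone was lower, and none was higher. *Prkab1* encodes the β1 subunit and had 8.95 in WT and 8.46 in *Mafk*-Tg, with a difference of -0.48. Both catalytic subunit genes were within the cutoff, *Prkaa1* at 0.08 and *Prkaa2* at 0.09. *Prkab2*, the gene of the other β subunit, had -0.09, *Prkag1* had -0.14 and *Stk11*, the gene of LKB1, had -0.06. The insulin receptor pathway to AKT, on which adipolin is known to act in liver and fat cells, had a median difference of 0.00 over 12 measured genes. *Insr* had 8.32 in WT and 8.31 in *Mafk*-Tg, *Akt1* had 10.30 and 10.18 and *Akt2* had 9.37 and 9.43. *Pdk1*, the 1 higher gene of the list at 0.28, encodes pyruvate dehydrogenase kinase, which is not a step between the insulin receptor and AKT, and *Irs2* had 0.26, under 1.2-fold.

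Processing and assembly genes included 2 that were higher and 1 that was lower among 16, with a median of -0.02. *Furin*, the gene of the protease that cleaves adipolin, had 8.24 in WT and 8.32 in *Mafk*-Tg, with a difference of 0.08. *Pcsk6*, which encodes a related proprotein convertase, was lower at 7.94 and 7.65. *Erp44*, whose product holds adiponectin back in the endoplasmic reticulum until its trimers have joined, was higher at 8.64 in WT and 9.06 in *Mafk*-Tg. *Ero1a*, the oxidase gene that acts with it, had -0.09 and *Gstk1*, also called DsbA-L and a promoter of adiponectin assembly, had -0.02. *Colgalt2*, a gene of a collagen galactosyltransferase, was higher by 0.41 but lay below both medians. The prolyl and lysyl hydroxylase genes *P4ha1* to *P4ha3* and *Plod1* to *Plod3*, whose enzymes modify collagen-like stalks, were within the cutoff.

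Among 7 transcription factor genes of adipokine control, *Klf15* was higher and *Cebpb* lower. *Klf3*, known as a repressor of the adipolin gene in other tissues, had 8.11 in WT and 7.95 in *Mafk*-Tg, with a difference of -0.16 within the cutoff. *Klf15*, a factor of metabolic gene control, had 7.31 and 7.63, a difference of 0.32. *Cebpb* had 6.26 and 5.90, a difference of -0.36 with 1 value on each side of the median. *Pparg*, the gene of the main regulator of fat cells, had 0.07.

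**Figure D4:**
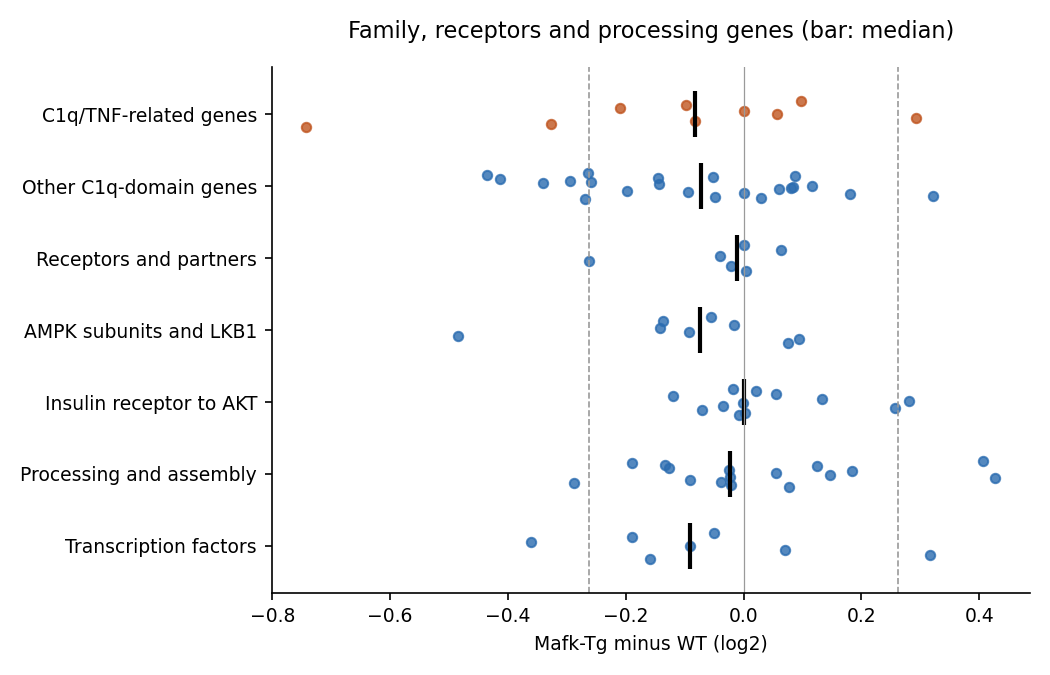
Points are genes of the C1q/TNF-related family and of 6 related lists, placed by their log2 difference (*Mafk*-Tg minus WT, single arrays); bars are medians and dashed lines mark 1.2-fold. All medians lie between -0.09 and 0.00, and *C1qtnf12* at -0.74 is the leftmost point.

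Fat tissue is the known source of several members, so fat cell genes were set beside them. Of 11 measured adipocyte genes, 10 were within the cutoff, and their mean log2 value was 6.06 in WT and 5.98 in *Mafk*-Tg. The hormone genes *Lep* and *Retn* and the lipid droplet genes *Plin1*, *Plin4* and *Cidec* lay below the medians of both arrays. The other measured genes of the list, *Fabp4*, *Pparg*, *Lpl*, *Pnpla2*, *Lipe* and *Slc2a4*, lay at or above both medians. *Lep* was lower, at 4.40 and 4.11. *Fabp4*, which endothelium also expresses, had 7.12 and 7.02, and *Lpl* had 7.60 and 7.47.

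Markers of several other cell types were lower in the same array as adipolin. Over all genes, 10.5% were lower and 7.96% higher. The 9 erythroid markers had a median difference of -0.52, with 7 lower and none higher, and mean log2 levels of 7.77 (WT) and 7.16 (*Mafk*-Tg). The 9 hepatocyte markers had -0.47, with 6 lower, 1 higher and means of 7.69 and 7.34. The 10 β-cell markers had -0.43, with 6 lower, none higher and means of 7.20 and 6.86. The 5 spleen stroma markers had -0.42, with 3 lower and means of 8.39 and 8.05. The 12 leukocyte markers had -0.30, with 7 lower and means of 8.10 and 7.75. Differences further below 0 than that of *C1qtnf12* were found for *G6pc2*, a glucose-6-phosphatase gene of β-cells, at -1.13, for the erythroid genes *Car1*, *Rhag* and *Ermap*, for *Apob* of hepatocytes at -0.94 and for *Srgn* of leukocytes at -0.87. The part of these cells in the adipolin and *C1qtnf1* differences was not tested.

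Markers of other islet hormones and of endocrine progenitors included genes that were higher in *Mafk*-Tg. The 6 markers of other islet hormones had a median of 0.38, with 4 higher, the 8 endocrine progenitor markers had 0.26, with 5 higher, and none of either list was lower. With the arrays set to equal medians, 3 of the progenitor markers were higher, and under quantile normalization 4 were. Of 8 acinar and 8 duct and trunk markers, 1 of each list was higher and 7 were within the cutoff, with medians of 0.22 and 0.15. Mesenchyme and endothelial markers had -0.11 and -0.12, and 8 neuron and glia markers had 0.18, with 3 higher and 1 lower. *Ins2* had 8.79 in WT and 8.40 in *Mafk*-Tg, and *Iapp*, the amylin gene, 10.18 and 10.35, so β-cell genes themselves were not uniform.

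**Figure D5:**
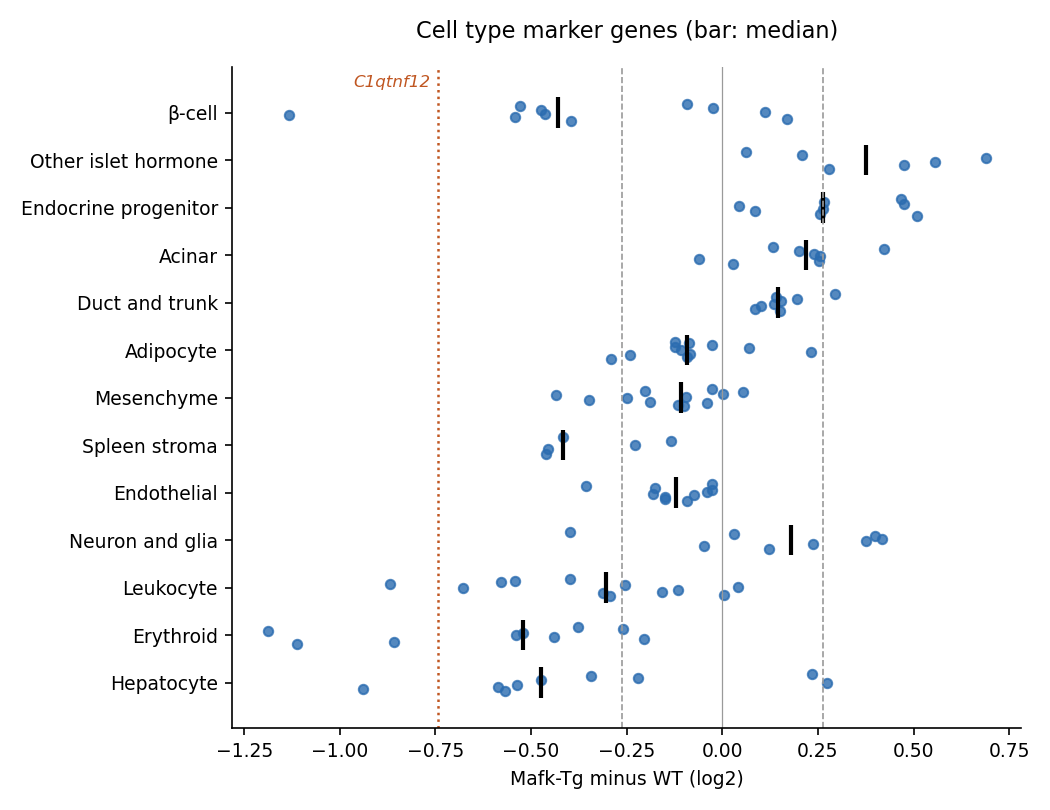
Points are markers of 13 cell type lists, placed by their log2 difference (*Mafk*-Tg minus WT, single arrays); bars are medians, dashed lines mark 1.2-fold and the dotted line marks *C1qtnf12* at -0.74. The β-cell, spleen stroma, leukocyte, erythroid and hepatocyte medians lie between -0.52 and -0.30, and the other islet hormone median lies at 0.38.

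A few genes had nearly the same difference as adipolin. Among genes at or above the median on both arrays, the 5 whose difference lay closest to -0.74 were *Mcpt8*, a basophil protease gene, *Nxpe2*, *Rhd*, an erythrocyte membrane gene, *Spi1*, the gene of the myeloid and lymphoid factor PU.1, and *Ms4a4a*, a macrophage gene. Their gaps to the *C1qtnf12* difference were 0.01 to 0.03. *Rhd* had 7.81 in WT and 7.05 in *Mafk*-Tg, and *Spi1* had 7.37 and 6.65. This likeness rests on a single difference between 2 arrays and is a description only.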

How the data were processed

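Whole pancreas RNA from WT and *Mafk*-Tg embryos at E15.5 was measured with 1 Affymetrix mouse gene array per genotype. The authors used Affymetrix Expression Console for normalization. Its version and algorithm, and the genome build, were not given in the sources used here. Deposited values are log2 signals between 0.51 and 14.01, and precision is limited by there being 2 arrays.

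Of 35556 probe sets, the 21789 with 1 symbol in the platform table were averaged per gene, giving 19938 genes. Each member has 1 probe set. Differences of at least 1.2-fold were counted, and no test was possible. The members and the 21 other lists were chosen with earlier results of these data known. Named are all members, genes of the related lists past 1.2-fold and up to 4 others per list, the 5 measured neighbours on each side of *C1qtnf12*, the 5 genes closest to its difference, *Mafk* and sex-linked genes. Some genes within the cutoff and some marker genes were named beyond this rule, after their values were seen. Alternatives were equal medians, quantile normalization, loess (span 0.3), the brightest probe set, a level filter, a 1.5-fold cutoff and counts of probe sets. Gene averaging, the scalings and the cutoff were tested on simulated data, with planted differences well past 1.2-fold and less spread than in these arrays. The promoter search, the neighbours and the closest genes were not tested in this way. Software was matplotlib 3.10.9, statsmodels 0.14.6, pandas 2.3.3 and numpy 2.4.6 under Python 3.11.15.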

Additional observations from a re-analysis of the deposited data

How the results depend on the processing

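No paired analysis was possible because each genotype has 1 array, and no replicate could be left out. Under equal medians, quantile normalization, loess and the brightest probe set, the *C1qtnf12* difference lay between -0.75 and -0.74, that of *C1qtnf1* between -0.33 and -0.32 and that of *C1qtnf3* between 0.29 and 0.31, and the counts of 2 lower and 1 higher members were the same. Each measured member has 1 probe set, so the brightest probe set returned the same member values by construction. Equal medians shifts every difference by the same small amount. At 1.5-fold, 1 member was lower and 0 were higher. With only genes at or above the median level, 2 were lower and 0 were higher, and the members' median difference was -0.27 in place of -0.08, since fewer members were counted. For the other lists, a count was taken as moved when it changed by more than 1.5 times, or to or from 0. A median was taken as moved when its shift reached the robust SD over genes divided by the square root of the list size. Of 252 values, 6 moved: *Cdh13* made 1 receptor gene lower under equal medians and quantile normalization, 0 adipocyte genes were lower under loess, 3 progenitor markers were higher under equal medians, and 0 and 2 hepatocyte genes were higher under quantile normalization and loess. Smaller shifts were 7 and 4 lower among the other C1q-domain genes under quantile normalization and loess in place of 6, 4 higher progenitor markers and 8 lower leukocyte markers under quantile normalization, 8 lower erythroid markers under equal medians and 4 higher sex-linked genes with the brightest probe set.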

Other observations

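Identical values on both arrays, as deposited, were found for 687 of the 19938 genes, among them *C1qtnf6*, *Cbln1* and *Rxfp1*. The sources used here do not say how such ties arose, and a difference of 0 from a tie is not evidence of equal RNA.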
